A study of Homo sapiens with 12 samples.

Results

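The 53 genes described here encode the proteins that copy DNA and supply its nucleotides. They were chosen by name from textbook roles in replication, with earlier results of these data known. Each name was matched to a gene of the count table. All 53 were found among the 58735 genes of the table, and all 53 were among the 14920 genes expressed highly enough to be tested. The cells were N/TERT-2G, an immortalised line of human skin keratinocytes, and the series title names vulvar lichen sclerosus, a chronic inflammatory skin disorder. Every group was transfected in 6-well plates with 100 pmol of siRNA and 5 µl of Lipofectamine 2000 per well, with fresh medium after 6 h. The groups received negative control siRNA, ATF3 siRNA, APOE siRNA or CXCL14 siRNA, with 3 libraries each. Of the targets, CXCL14 encodes a chemokine secreted by epithelia, APOE a lipoprotein component that carries lipids, and ATF3 a transcription factor induced by stress. A single cell line stood for all keratinocytes, and the labels leave out the time from transfection to RNA isolation. The labels do not say whether replicates were separate cultures, so p-values measure only the spread between libraries, which may be technical.

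Before a cell copies its DNA, the origin recognition complex (ORC1, ORC6) with CDC6 and CDT1 loads the MCM2 to MCM7 ring onto origins, a step called licensing that GMNN (geminin) blocks by binding CDT1. MCM10, CDC45 and the GINS complex (GINS1 to GINS4) then turn the ring into an active helicase. Primase and the polymerases alpha, delta and epsilon (POLA1, POLA2, PRIM1, PRIM2, POLD1, POLD2, POLD3, POLE, POLE2) make the new strands. They work with the sliding clamp PCNA, its loader (RFC2 to RFC5), the flap nuclease FEN1, the ligase LIG1 and the single-strand binding complex RPA1, RPA2 and RPA3. RRM1 and RRM2, the subunits of ribonucleotide reductase, together with TYMS, TK1 and DUT supply and clean the deoxynucleotide pool. The cyclins CCNE1 and CCNE2 and the activators E2F1 and E2F2 drive entry into S phase, and E2F8 is a repressor of the same family. CHAF1A and CHAF1B place histones behind the fork, UHRF1 helps to copy DNA methylation, SLBP binds histone mRNA, and WDHD1, TIPIN and CLSPN hold the fork together and signal its stalling. In the epidermis, dividing keratinocytes lie in and near the basal layer and stop copying DNA as they differentiate.

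Many of these genes are textbook targets of E2F factors, so their promoters were read in RefSeq windows of GRCh38.p14 from 250 bases before to 50 bases after the start. Windows were held for 45 of the 53 genes. The stretches printed here lie upstream of every annotated start of the gene and are shown because they span the range of motif content among genes that fell with CXCL14 siRNA. Capitals mark the E2F words searched, which were TTTCCCGC, TTTCGCGC, TTTGCCGC and TTTGGCGC on either strand. The MCM6 stretch (minus strand, chr2:135876444-135876613) holds the joined word TTTGGCGCGAAA at 2 places, each made of an overlapping pair of the words searched. The E2F2 stretch (minus strand, chr1:23531234-23531403) holds 1 word, and the MCM10 stretch (plus strand, chr10:13161384-13161553) holds 0.
MCM6: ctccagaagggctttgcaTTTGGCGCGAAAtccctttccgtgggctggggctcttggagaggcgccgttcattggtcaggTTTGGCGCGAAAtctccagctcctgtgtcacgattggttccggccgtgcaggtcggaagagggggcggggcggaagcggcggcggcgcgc
E2F2: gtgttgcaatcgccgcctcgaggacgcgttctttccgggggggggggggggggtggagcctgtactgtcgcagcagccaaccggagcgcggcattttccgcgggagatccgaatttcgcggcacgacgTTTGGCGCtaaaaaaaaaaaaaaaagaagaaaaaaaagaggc
MCM10: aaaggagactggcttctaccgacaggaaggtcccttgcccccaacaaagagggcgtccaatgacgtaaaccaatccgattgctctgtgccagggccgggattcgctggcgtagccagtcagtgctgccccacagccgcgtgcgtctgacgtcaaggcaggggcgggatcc

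An E2F word lay in the window of 24 of the 45 members with a window, or 53.3%, against 6.57% of the 10453 tested genes with a window and 3.99% of all 27305 genes with a window. The joined word of MCM6 was found in the windows of 4 of the 27305 genes. CCAAT, the core of NF-Y sites, lay on either strand in 57.8% of members and 42.9% of tested genes. TTTGAA, a form of the element called CHR, lay on either strand in 4.44% of members and 13.6% of tested genes. A match of letters describes the window only.

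In control cells the 53 genes ranged widely in level per length. On the FPKM scale the median member stood at 9.35 and the median tested gene at 4.12. PCNA, the sliding clamp, was highest at 108.1 ± 4.85 FPKM (SD, n = 3), followed by TK1 at 43.2 ± 1.72 and MCM7 at 39.0 ± 0.53. E2F8 was lowest at 1.01 ± 0.25 FPKM, next to CCNE2 at 1.11 ± 0.12 and POLA2 at 1.18 ± 0.16, and these lowest 3 did not differ beyond their spread. The 6 ring subunits, which act in equal numbers in the protein ring, were unequal as transcripts. After MCM7, their FPKM in control cells were 32.4 ± 0.64 for MCM3, 23.2 ± 0.19 for MCM4, 16.4 ± 0.13 for MCM6, 12.996 ± 0.58 for MCM5 and 12.6 ± 0.76 for MCM2. MCM5 and MCM2 did not differ beyond their spread. The lowest count of any member in any library was 22, and 45 of the 53 had over 100 counts in every library.

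Total counts ran from 16225691 to 22246755 per library. The keratinocyte identity of the cells showed in 12 basal marker genes. Their summed level was 41550 to 42690 CPM (counts relative to library size, scaled by TMM) in control libraries. Of 7 immune genes, PTPRC, CD3E, LYZ and AIF1 were at 0 in all 12 libraries. CD14 averaged 2.28 CPM in control libraries, 3.68 with ATF3 siRNA, 5.89 with APOE siRNA and 1.19 with CXCL14 siRNA. CD79A and CD68 had group means of at most 0.504 and 0.245 CPM. ATF3 mRNA measured 43.0, 43.1 and 40.5 CPM in control libraries, and in those given its siRNA 12.02, 12.5 and 11.5 CPM. It measured 42.4, 38.8 and 44.7 CPM with APOE siRNA and 64.1, 71.6 and 69.3 CPM with CXCL14 siRNA. APOE had 46, 59 and 51 counts in control libraries and 2, 5 and 3 counts with APOE siRNA. Mean APOE was 3.18 CPM in control libraries, 3.88 CPM with ATF3 siRNA and 5.88 CPM with CXCL14 siRNA. CXCL14 was scarce before any knockdown, with 7, 6 and 11 counts in control libraries and 1, 1 and 0 counts with CXCL14 siRNA. A count of 0 in that library allows up to 0.140 CPM. With APOE siRNA, CXCL14 was at 12.3, 4.27 and 9.06 CPM, which was 4.11 ± 0.48 above the control on the log2 scale (adjusted p = 3.48e-06, edgeR). With ATF3 siRNA, CXCL14 had 5, 17 and 21 counts.

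Nearly the whole set was lower in cells with CXCL14 siRNA. Of the 53 genes, 49 were lower and 2 were higher than in control cells at an adjusted p under 0.05 (edgeR quasi-likelihood test, Benjamini-Hochberg over all 14920 genes), where 28.4% of all tested genes were lower and 27.4% higher. The median log2 fold change was -0.98 over the members and 0.01 over all genes tested. The fall was at least 2-fold in 26 members, against 8.9% of all tested genes. The CPM of 50 members lay wholly below those of the control libraries, against 31.1% of all tested genes. RNA was taken from whole wells, so fewer cells in S phase and less of each mRNA per cell cannot be told apart.

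**Figure D1:**
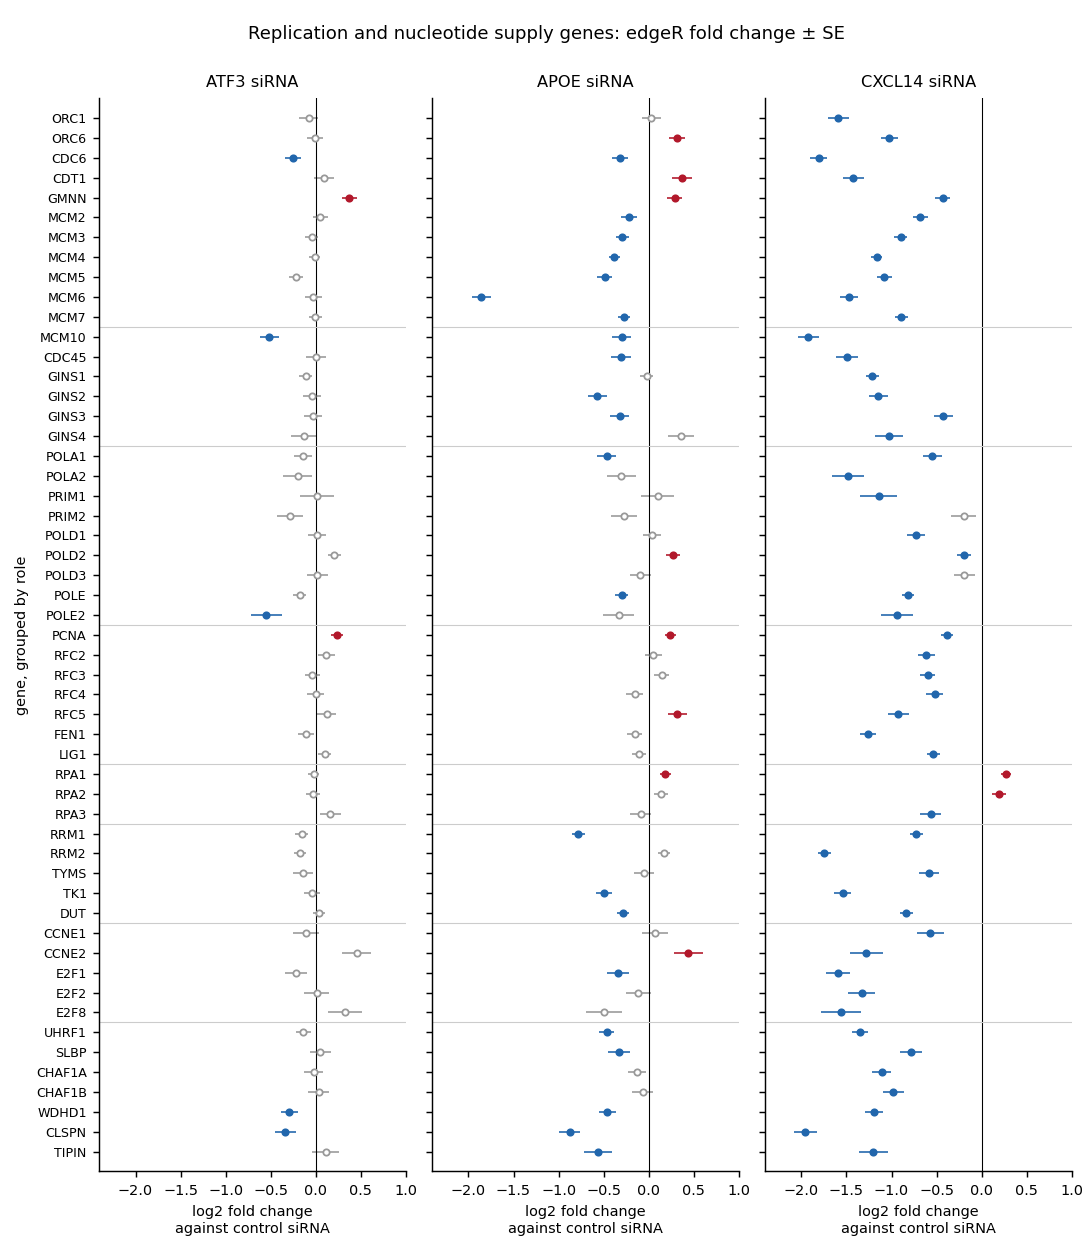
Log2 fold change of each of the 53 genes against control siRNA (horizontal axis, edgeR, bars are SE) in cells with ATF3, APOE or CXCL14 siRNA, with genes in rows grouped by role. Filled blue points were lower and filled red points higher at an adjusted p under 0.05, and open grey points did not pass. With CXCL14 siRNA 49 points are blue, with APOE siRNA 22 and with ATF3 siRNA 5.

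Among the licensing genes, all 11 were lower with CXCL14 siRNA, and their median log2 fold change was -1.08. CDC6, the loader that brings the ring to origins, had 55.9, 55.9 and 56.7 CPM in control libraries and 16.9, 15.4 and 15.8 CPM with CXCL14 siRNA. That left 28.6% of the control level, a log2 fold change of -1.81 ± 0.09 (SE, adjusted p = 1.68e-10, edgeR). MCM4 had 164.5, 164.5 and 163.4 CPM in control libraries and 74.9, 73.4 and 71.4 CPM with CXCL14 siRNA, and its log2 fold change was -1.16 ± 0.06 (adjusted p = 1.59e-10, edgeR). In both genes the groups were far apart and the libraries of a group close together. All 6 ring subunits fell, MCM6 most at -1.48 ± 0.10 and MCM2 least at -0.68 ± 0.09 on the log2 scale. MCM5 fell to 47.3% of control (-1.08 ± 0.08), MCM3 to 53.7% (-0.90 ± 0.07) and MCM7 to 53.9% (-0.89 ± 0.07). ORC1, the largest origin recognition subunit, had a log2 fold change of -1.59 ± 0.12, and ORC6 one of -1.02 ± 0.09. CDT1 changed by -1.42 ± 0.12 and its inhibitor GMNN by -0.43 ± 0.09 on the log2 scale, the smallest fall of this group.

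The 6 genes of helicase activation were all lower with CXCL14 siRNA, and the median of their log2 fold changes was -1.18. MCM10, which helps to start the helicase, had 30.5, 31.5 and 30.7 CPM in control libraries and 9.39, 6.70 and 8.27 CPM with CXCL14 siRNA, or 26.3% of control (-1.92 ± 0.11, adjusted p = 8.17e-10, edgeR). GINS1 had 38.6, 39.5 and 41.7 CPM in control libraries and 18.4, 17.5 and 15.9 CPM with CXCL14 siRNA (-1.21 ± 0.08, adjusted p = 1.59e-09, edgeR). No library of one group reached the range of the other in either gene. CDC45 changed by -1.49 ± 0.12, GINS2 by -1.15 ± 0.11, GINS4 by -1.03 ± 0.15 and GINS3 by -0.42 ± 0.10 on the log2 scale.

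Genes of DNA synthesis had smaller median falls. Of the 9 polymerase and primase genes 7 were lower with CXCL14 siRNA, and the median over the 9 was -0.73 on the log2 scale. POLA2, a subunit of the priming polymerase, changed by -1.48 ± 0.18 and the primase subunit PRIM1 by -1.14 ± 0.20 on the log2 scale. Other genes overlap 35.1% of the exon bases of POLA2 and 21.6% of those of PRIM1, and MCM2 (23.6%), GINS4 (23.6%), TIPIN (21.0%), RRM2 (20.2%), DUT (14.5%), GINS3 (10.9%) and RFC5 (10.7%) are likewise shared in part, so these values hold only if reads were assigned to the right gene. For RRM2 the overlapping gene, AC007240.1, had a mean of 2.5 counts against 1179.9 for RRM2. The overlapping gene with most counts had a mean of 3.9 for POLA2, 4.3 for DUT, 1.1 for GINS4, 0.1 for GINS3 and 0.0 for TIPIN. For PRIM1 that mean was 4326.2, for RFC5 1767.6 and for MCM2 1425.8. POLE2 (-0.94 ± 0.17), the catalytic subunits POLE (-0.82 ± 0.07), POLD1 (-0.73 ± 0.10) and POLA1 (-0.55 ± 0.11), and POLD2 (-0.20 ± 0.07) followed. The call of POLD2 was lost in 5 of 14 alternative analyses, with adjusted p up to 0.147. The 2 members that did not pass the test were PRIM2, at a log2 fold change of -0.20 ± 0.14 (adjusted p = 0.237, edgeR), and POLD3, at -0.19 ± 0.12 (adjusted p = 0.175, edgeR). All 7 clamp, loader and Okazaki fragment genes were lower, by a median of -0.60. FEN1, which trims the flaps of Okazaki fragments, changed by -1.27 ± 0.09 and PCNA by -0.38 ± 0.07 on the log2 scale, the widest gap within this role. Between them lay RFC5 (-0.92 ± 0.11), RFC2 (-0.62 ± 0.09), RFC3 (-0.60 ± 0.08), LIG1 (-0.54 ± 0.07) and RFC4 (-0.52 ± 0.10).

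The single-strand binding complex split with CXCL14 siRNA. RPA1, its large subunit, had 94.2, 93.8 and 96.1 CPM in control libraries and 114.3, 109.2 and 119.2 CPM with CXCL14 siRNA, a rise of 0.27 ± 0.06 on the log2 scale (adjusted p = 0.000746, edgeR). RPA2 was higher by 0.19 ± 0.08 (adjusted p = 0.0453, edgeR), a call lost in 8 of 14 alternative analyses. RPA3 was lower, at a log2 fold change of -0.57 ± 0.12. RPA1 and RPA2 were the only members of the 53 called higher in this comparison.

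All 5 nucleotide supply genes were lower with CXCL14 siRNA, and the median of their log2 fold changes was -0.83. RRM2, the regulated subunit of ribonucleotide reductase, had 82.1, 78.9 and 80.0 CPM in control libraries and 26.4, 22.3 and 23.0 CPM with CXCL14 siRNA, or 29.8% of control (-1.75 ± 0.07, adjusted p = 2.08e-11, edgeR). Its adjusted p was the smallest of the 53. TK1, the thymidine salvage kinase of S phase, had 77.8, 84.2 and 82.6 CPM in control libraries and 28.0, 24.1 and 31.7 CPM with CXCL14 siRNA (-1.54 ± 0.09, adjusted p = 6.13e-10, edgeR). DUT, which removes dUTP, changed by -0.83 ± 0.07, RRM1 by -0.72 ± 0.07 and the thymidylate synthase TYMS by -0.58 ± 0.11 on the log2 scale. Of the TYMS exons 46.6% of bases overlap other genes, chiefly ENOSF1 on the opposite strand, and no source states whether counting used strand, so the value of TYMS is uncertain.

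The 5 regulators of S phase entry and the 7 chromatin and fork genes were also all lower with CXCL14 siRNA, with medians of -1.33 and -1.19. E2F1 fell to 33.0% of control (-1.60 ± 0.13) and E2F2 to 39.8% (-1.33 ± 0.15). The repressor E2F8 moved the same way, to 33.8% (-1.56 ± 0.22), from counts of 56 to 89 in control libraries. CCNE2 changed by -1.28 ± 0.18 and CCNE1 by -0.57 ± 0.15 on the log2 scale. CCNE2 exons overlap INTS8 on the opposite strand over 37.1% of bases, so its value carries the same uncertainty as that of TYMS. CLSPN, the adaptor that passes the stalled-fork signal to CHK1, had 26.3, 25.4 and 27.8 CPM in control libraries and 8.23, 6.81 and 5.52 CPM with CXCL14 siRNA. At 25.8% of control (-1.96 ± 0.13, adjusted p = 2.02e-09, edgeR) this was the largest fall of the 53. UHRF1 had 105, 117.7 and 120.6 CPM in control libraries and 47.6, 44.8 and 42.1 CPM with CXCL14 siRNA (-1.35 ± 0.09, adjusted p = 1.56e-09, edgeR). The groups were again well apart. TIPIN (-1.20 ± 0.16), WDHD1 (-1.19 ± 0.10), CHAF1A (-1.11 ± 0.10), CHAF1B (-0.98 ± 0.12) and SLBP (-0.78 ± 0.12) made up the rest.

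**Figure D2:**
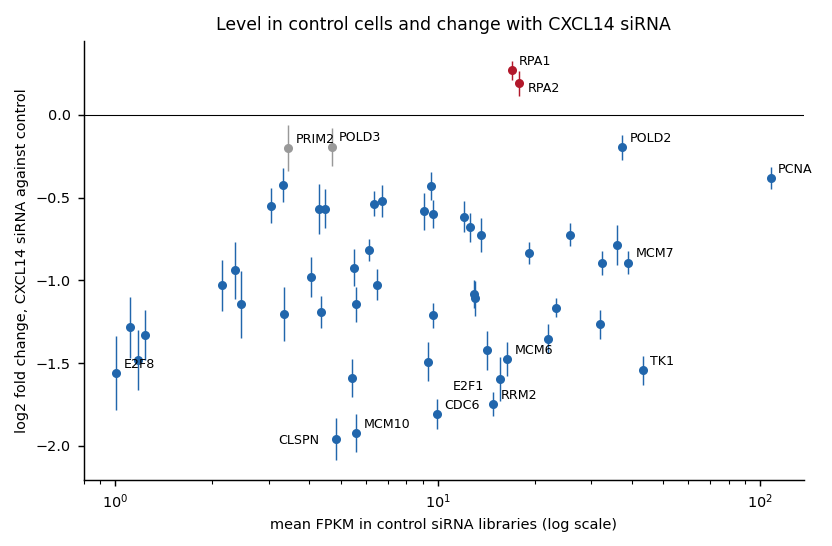
Mean FPKM of each of the 53 genes in control siRNA libraries (horizontal axis, log scale) against its log2 fold change with CXCL14 siRNA (vertical axis, edgeR, bars are SE). Blue points were lower, red higher and grey not called. Large falls appear from E2F8 at 1.01 FPKM to TK1 at 43.2 FPKM, while PCNA at 108.1 FPKM fell by 0.38.

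The members were also read by whether the window held an E2F word. The median log2 fold change with CXCL14 siRNA was -0.92 over the 24 members with a word and -0.98 over the 21 without. With APOE siRNA the medians of the same genes were -0.30 and -0.06. MCM10, with no word, and MCM6, with its joined words, both fell. These medians are descriptions of the windows at hand.

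Other genes of the pathway moved in part with the set. Of 31 other replication factors tested, 25 were lower and 3 higher with CXCL14 siRNA, and the median of their log2 fold changes was -0.81. The largest effects by adjusted p were in TOP2A, the topoisomerase that untangles copied DNA, at -2.03 ± 0.12, the histone chaperone ASF1B at -1.497 ± 0.11 and DBF4, the activator of the CDC7 kinase, at -1.52 ± 0.11. Of 25 other genes of nucleotide metabolism, 12 were lower and 5 higher, with a median of -0.21. GMPS of guanine nucleotide synthesis was lower at -0.95 ± 0.06, whereas RRM2B, the p53-induced alternative to RRM2, was higher at 1.27 ± 0.07. Of 24 cyclin, CDK and RB-E2F genes, 13 were lower and 6 higher, with a median of -0.27. CDK2 (-1.35 ± 0.07), CCNA2 (-1.60 ± 0.09) and CDC25A (-1.29 ± 0.08), which drive S phase, were lower.

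Markers of other states moved beside the set with CXCL14 siRNA. All 20 mitosis markers tested were lower, and the median of their log2 fold changes was -1.63. Of 5 CDK inhibitors tested 2 were higher and 1 was lower. CDKN1A, the p53-induced inhibitor p21, had 924.5, 946.2 and 1013 CPM in control libraries and 1873, 1997 and 2074 CPM with CXCL14 siRNA (1.04 ± 0.06, adjusted p = 8.60e-10, edgeR). Of 12 basal keratinocyte genes 10 were lower, and their summed level was 25690 to 26720 CPM. Of 13 differentiation genes 4 were higher and 3 lower, with a summed level of 150.9 to 158.2 CPM against 150.1 to 178.5 CPM in control libraries. The fibroblast list summed to 14.6 to 17.9 CPM against 25.4 to 34.2 CPM in control libraries. COL1A1 made up most of it, averaging 15.2 CPM against 28.8 CPM. Of 2 fibroblast genes tested 1 was lower and 1 higher. The melanocyte list summed to 6.60 to 6.76 CPM against 3.385 to 4.195 CPM in control libraries, with 1 of 3 tested genes higher. Most of that rise was in MITF, averaging 4.46 CPM against 1.93 CPM, and TYR was at 0 in both groups. The endothelial list summed to 1.37 to 1.58 CPM against 0.304 to 0.620 CPM, and its 1 tested gene was higher. KDR made up most of it, averaging 1.31 CPM against 0.326 CPM, and CDH5 and TIE1 were at 0 in both groups. The part of these markers in the fall was not tested.

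With APOE siRNA the genes moved in both directions, mostly by less than 2-fold. Of the 53 members 22 were lower and 8 higher than in control cells (edgeR, adjusted p under 0.05), where 22.5% of all tested genes were lower and 22.3% higher. The share of members higher was thus below that background, and the share lower above it. The median log2 fold change was -0.16 over the members and 0.01 over all genes. Only MCM6 fell at least 2-fold. Without APOE library 3, 24 were lower and 2 higher, the calls of PCNA, RPA1, CDT1, GMNN, RFC5 and CCNE2 being lost.

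MCM6 had the largest fall of the ring. It had 68.8, 67.8 and 69.0 CPM in control libraries and 18.8, 17.0 and 21.0 CPM with APOE siRNA, or 27.7% of control (-1.86 ± 0.10, adjusted p = 1.41e-09, edgeR). The other 5 ring subunits were lower too, at 71.2 to 85.9% of control. MCM4 had 164.5, 164.5 and 163.4 CPM in control libraries and 124.9, 124.1 and 129.1 CPM with APOE siRNA (-0.38 ± 0.06, adjusted p = 6.05e-05, edgeR). MCM5 had 92.7, 101.1 and 96.0 CPM in control libraries and 66.1, 66.2 and 74.2 CPM with APOE siRNA (-0.49 ± 0.08, adjusted p = 0.000139, edgeR). The groups did not overlap in these 3 genes. MCM3 changed by -0.29 ± 0.07, MCM7 by -0.28 ± 0.07 and MCM2 by -0.22 ± 0.09 on the log2 scale. The difference between MCM6 and the other subunits was not itself tested.

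**Figure D3:**
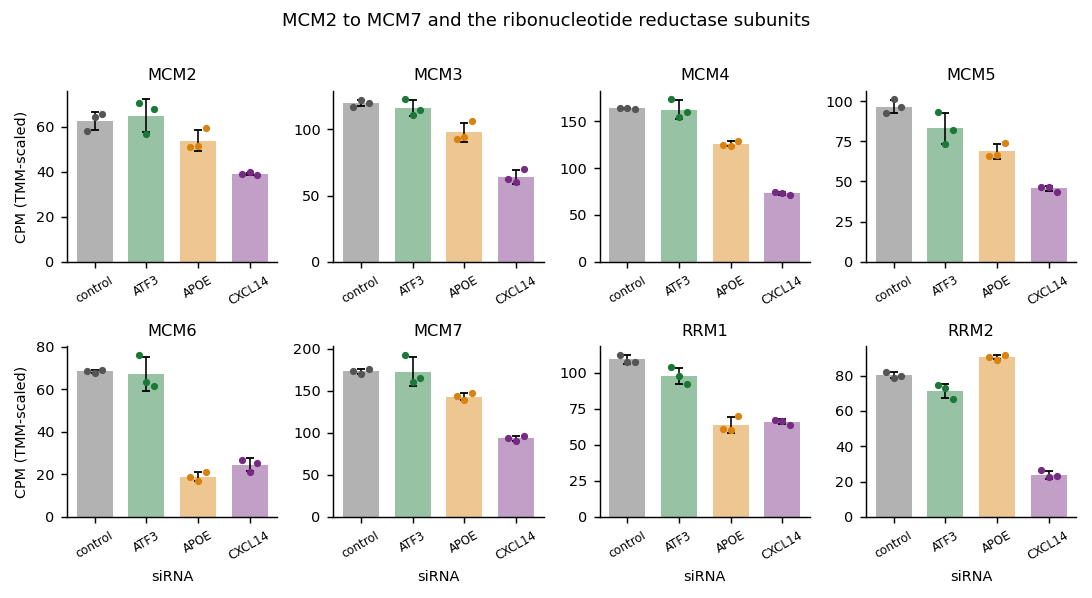
CPM (TMM-scaled, vertical axes from 0) of MCM2 to MCM7, RRM1 and RRM2 in the 4 siRNA groups; points are libraries, bars their mean and whiskers the SD of 3 libraries. MCM6 was at 19.0 CPM with APOE siRNA and 24.6 CPM with CXCL14 siRNA against 68.5 CPM in control cells, and RRM2 fell with CXCL14 siRNA while it stood at 90.5 CPM with APOE siRNA.

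The ribonucleotide reductase subunits separated with APOE siRNA. RRM1, the catalytic subunit, had 112.7, 107.7 and 107.3 CPM in control libraries and 60.8, 60.01 and 69.9 CPM with APOE siRNA (-0.78 ± 0.07, adjusted p = 2.12e-07, edgeR). RRM2 had 82.1, 78.9 and 80.0 CPM in control libraries and 90.7, 89.0 and 91.8 CPM with APOE siRNA (0.17 ± 0.07, adjusted p = 0.0507, edgeR). Its groups did not overlap, but it missed the threshold. It was called higher in 4 of 14 alternative analyses, those with a stricter filter, limma-voom, only the 2 groups or a replicate block. TK1 had 77.8, 84.2 and 82.6 CPM in control libraries and 55.0, 59.7 and 58.4 CPM with APOE siRNA (-0.50 ± 0.09, adjusted p = 0.000191, edgeR). DUT was lower at -0.28 ± 0.07, and TYMS, at -0.06 ± 0.11, did not pass the test.

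Fork and chromatin genes were lower in 5 of 7 cases with APOE siRNA, and the median of their log2 fold changes was -0.46. CLSPN had 26.3, 25.4 and 27.8 CPM in control libraries and 15.9, 13.2 and 14.2 CPM with APOE siRNA (-0.88 ± 0.12, adjusted p = 1.71e-05, edgeR). UHRF1 had 105, 117.7 and 120.6 CPM in control libraries and 78.6, 85.6 and 84.4 CPM with APOE siRNA (-0.47 ± 0.08, adjusted p = 0.000255, edgeR). WDHD1 (-0.46 ± 0.09), TIPIN (-0.57 ± 0.16) and SLBP (-0.33 ± 0.12) were lower, although the libraries of TIPIN and SLBP overlapped those of the control, as did those of MCM2 and CDT1. Of the helicase activators GINS2 had 17.4, 20.1 and 17.9 CPM in control libraries and 12.2, 12.7 and 12.3 CPM with APOE siRNA (-0.57 ± 0.11, adjusted p = 0.000349, edgeR). GINS3 (-0.32 ± 0.10), CDC45 (-0.31 ± 0.11) and MCM10 (-0.30 ± 0.10) were lower by less. POLA1 (-0.47 ± 0.11), POLE (-0.30 ± 0.07), CDC6 (-0.32 ± 0.09) and E2F1 (-0.34 ± 0.12) completed the falls. Of the members called lower, MCM2, MCM10, E2F1 and SLBP lost their calls in 4 of 14 alternative analyses each, CDC45 in 3 and GINS3 in 1.

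The 8 rises with APOE siRNA were small. CCNE2 rose by 0.44 ± 0.16, CDT1 by 0.37 ± 0.11, RFC5 by 0.32 ± 0.11 and ORC6 by 0.31 ± 0.09 on the log2 scale. GMNN (0.29 ± 0.08), POLD2 (0.27 ± 0.07), PCNA (0.24 ± 0.07) and RPA1 (0.19 ± 0.06) were the others. CCNE2 lost its call in 8 of 14 alternative analyses, RPA1 and RFC5 in 4 each, CDT1 in 2, and GMNN and PCNA in 1 each. The 23 members not called had log2 fold changes from -0.50 (E2F8) to 0.36 (GINS4).

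The other lists were mixed with APOE siRNA. Of 31 other replication factors tested, 12 were lower and 3 higher, and the median of their log2 fold changes was -0.14. TIMELESS, the partner of TIPIN at the fork, fell to 28.7% of control (-1.80 ± 0.08), and TOP1, which relieves supercoils ahead of it, to 41.1% (-1.28 ± 0.06), whereas the histone chaperone ASF1A rose by 1.10 ± 0.11. Of 25 other nucleotide genes 7 were lower and 7 higher, among them NME1 (-1.12 ± 0.09), CTPS2 (-0.73 ± 0.11) and RRM2B (1.02 ± 0.07). Of 24 cyclin, CDK and RB-E2F genes 9 were higher and 6 lower. MYBL2, a late cell cycle activator, was at -1.40 ± 0.09, E2F3 at 0.65 ± 0.07 and TFDP2 at 0.59 ± 0.07. Of 20 mitosis markers 11 were lower and 0 higher, with a median of -0.36. CDKN1A had 1705, 1699 and 1806 CPM with APOE siRNA (0.85 ± 0.06, adjusted p = 2.11e-08, edgeR). Of 13 differentiation genes 12 were higher, with a summed level of 484.9 to 594 CPM, and of 12 basal genes 4 were higher and 5 lower. The fibroblast list summed to 74.3 to 88.0 CPM, of which COL1A1 alone averaged 80.4 CPM. The other fibroblast genes averaged at most 0.54 CPM each, with COL3A1 at 0. Of 8 fibroblast genes 6 had under 10 counts in every APOE library. The part of these markers in the members' changes was not tested.

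ATF3 siRNA left most of the genes without a detected change. Of the 53 members 5 were lower and 2 higher (edgeR, adjusted p under 0.05), where 9.14% of all tested genes were lower and 11.2% higher. The share of members lower was near the background and the share higher below it, and the median log2 fold change was -0.03. Of the calls over all genes 55.2% were rises, and 44.0% when libraries were scaled by total count alone. The 46 members not called ranged from -0.28 to 0.45 on the log2 scale.

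MCM10 had 30.5, 31.5 and 30.7 CPM in control libraries and 24.1, 20.8 and 19.8 CPM with ATF3 siRNA (-0.51 ± 0.11, adjusted p = 0.00278, edgeR). GMNN, the licensing inhibitor, had 22.6, 25.8 and 23.6 CPM in control libraries and 31.2, 32.0 and 29.7 CPM with ATF3 siRNA (0.37 ± 0.08, adjusted p = 0.00515, edgeR). These were the 2 calls that held in all 14 alternative analyses. PCNA had 153.6, 160.6 and 169.3 CPM in control libraries and 188.3, 192.6 and 186.8 CPM with ATF3 siRNA (0.23 ± 0.07, adjusted p = 0.021, edgeR). POLE2, a subunit of polymerase epsilon, had 5.92, 7.36 and 7.93 CPM in control libraries and 5.16, 5.51 and 3.75 CPM with ATF3 siRNA (-0.55 ± 0.17, adjusted p = 0.0316, edgeR). WDHD1 had 30.8, 27.6 and 25.8 CPM in control libraries and 24.5, 21.4 and 22.9 CPM with ATF3 siRNA (-0.29 ± 0.09, adjusted p = 0.0366, edgeR). In each of these genes the groups did not overlap, though in POLE2 and WDHD1 they came close. CLSPN had 26.3, 25.4 and 27.8 CPM in control libraries and 22.8, 20.1 and 19.9 CPM with ATF3 siRNA (-0.34 ± 0.11, adjusted p = 0.047, edgeR). CDC6 had 55.9, 55.9 and 56.7 CPM in control libraries and 53.5, 43.9 and 43.7 CPM with ATF3 siRNA (-0.25 ± 0.09, adjusted p = 0.0482, edgeR), and its first library lay close to the control. Leaving out control library 2 left 1 call lower and 1 higher. Without control library 1 or ATF3 library 2 there were 2 lower and 1 higher, and without control library 3 or ATF3 library 3 there were 2 lower.

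The lists differed in length, and by number alone nucleotide metabolism had the most calls with ATF3 siRNA. Of 25 such genes 11 were higher and 2 lower, and the median of their log2 fold changes was 0.03. TK2, the mitochondrial thymidine kinase, was higher at 1.21 ± 0.14 and RRM2B at 0.69 ± 0.07, and the purine enzyme PAICS was lower at -0.87 ± 0.07. Of 31 other replication factors 1 was higher, POLE4 at 0.39 ± 0.07, and 3 were lower, among them TOPBP1 at -0.29 ± 0.06 and POLE3 at -0.30 ± 0.09. Of 24 cyclin, CDK and RB-E2F genes 3 were higher and 5 lower, among them RB1 at -0.33 ± 0.08, MYBL2 at -0.33 ± 0.08 and E2F7 at -0.27 ± 0.07. Of 20 mitosis markers 1 was lower, BUB1 at -0.26 ± 0.08. CDKN1A had 1338, 1354 and 1445 CPM (0.52 ± 0.06, adjusted p = 2.46e-05, edgeR). Of 13 differentiation genes 9 were higher and 0 lower, with a median log2 fold change of 1.69 and a summed level of 388.7 to 514.1 CPM. Of 12 basal genes 2 were higher and 5 lower. The part of these markers was not tested.

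The comparisons with control share its 3 libraries. The siRNAs were also compared with each other, but these comparisons reuse the same targeting libraries and are not independent of those with control. Between ATF3 and CXCL14 siRNA, 48 members were higher with ATF3 siRNA and 2 were lower (edgeR, adjusted p under 0.05), where 28.4% of all tested genes were higher and 25.3% lower. RRM2 had 74.4, 72.8 and 66.5 CPM with ATF3 siRNA and 26.4, 22.3 and 23.0 CPM with CXCL14 siRNA (1.58 ± 0.07, adjusted p = 6.06e-11, edgeR). MCM4 (1.15 ± 0.06), TK1 (1.502 ± 0.09) and CDC6 (1.55 ± 0.09) followed by adjusted p. The members lower with ATF3 siRNA were RPA1 (-0.30 ± 0.06) and RPA2 (-0.22 ± 0.08), and only 1 of them passed without ATF3 library 2 or 3 or CXCL14 library 2 or 3.

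Between APOE and CXCL14 siRNA, 45 members were higher with APOE siRNA and 1 was lower (edgeR, adjusted p under 0.05), where 28.9% of all tested genes were higher and 26.6% lower. RRM2 had 90.7, 89.0 and 91.8 CPM with APOE siRNA and 26.4, 22.3 and 23.0 CPM with CXCL14 siRNA (1.92 ± 0.07, adjusted p = 6.34e-12, edgeR). CDC6 (1.49 ± 0.09), GINS1 (1.19 ± 0.08) and CDT1 (1.79 ± 0.12) came next. The exception was MCM6, at 18.8, 17.0 and 21.0 CPM with APOE siRNA and 27.0, 21.3 and 25.5 CPM with CXCL14 siRNA (-0.38 ± 0.11, adjusted p = 0.00622, edgeR). Its 5 partners in the ring were all higher with APOE siRNA in this comparison, from 0.46 ± 0.09 for MCM2 to 0.78 ± 0.06 for MCM4 on the log2 scale.

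Between ATF3 and APOE siRNA, 19 members were higher with ATF3 siRNA and 4 lower (edgeR, adjusted p under 0.05), where 20.3% of all tested genes were higher and 17.9% lower. MCM6 had 76.4, 63.3 and 61.8 CPM with ATF3 siRNA and 18.8, 17.0 and 21.0 CPM with APOE siRNA (1.83 ± 0.10, adjusted p = 1.86e-09, edgeR). RRM1 (0.63 ± 0.07), MCM4 (0.37 ± 0.06) and TK1 (0.46 ± 0.09) followed. The 4 members lower with ATF3 siRNA were RRM2 (-0.34 ± 0.07), ORC6 (-0.33 ± 0.09), RPA1 (-0.21 ± 0.06) and GINS4 (-0.49 ± 0.14). Without APOE library 1 the number higher was 11, and without APOE library 2 it was 12.

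The fall with CXCL14 siRNA was present in each of its libraries. Relative to the mean of the control libraries, the median member stood at -0.92, -1.04 and -0.90 on the log2 CPM scale in its 3 libraries. The median over all tested genes stood at 0.015, 0.017 and 0.018 in the same libraries. In each, 51 of 53 members were below the control mean. Of all 14920 tested genes, 7315 had a negative log2 fold change with CXCL14 siRNA. With APOE siRNA the member medians were -0.27, -0.20 and -0.04, so library 3 lay closest to the control. With ATF3 siRNA they were 0.04, -0.11 and -0.06, and the control libraries themselves spread from -0.03 to 0.05. The CXCL14 libraries lay below all 9 others, by more than those spread among themselves.

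**Figure D4:**
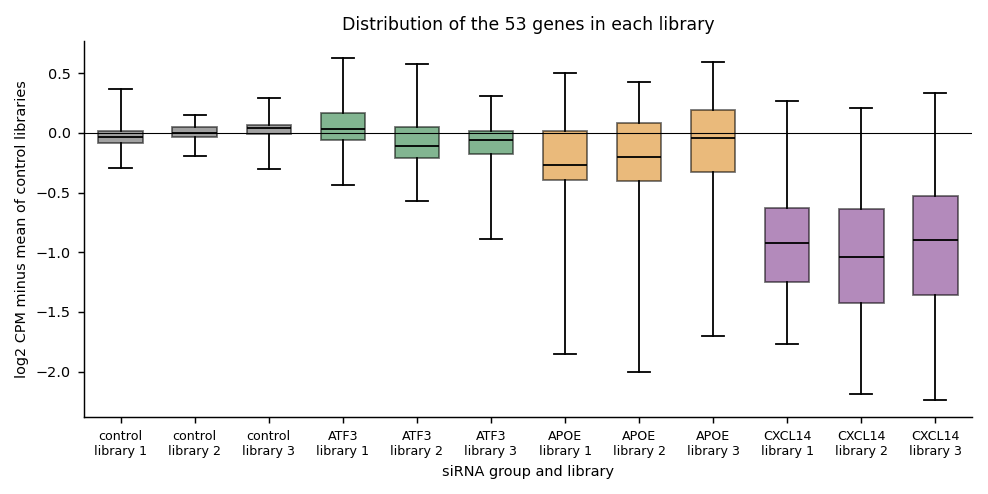
Log2 CPM of the 53 genes in each of the 12 libraries minus the mean of the control libraries (vertical axis); boxes span the quartiles, lines mark medians and whiskers reach the lowest and highest gene. The medians of the CXCL14 siRNA libraries are -0.92, -1.04 and -0.90, against -0.27 to 0.05 in the other 9 libraries.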

How the data were processed

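The authors deposited raw counts per gene and FPKM per gene, with gene length as another column. Per the submitters' processing notes the tools include HISAT2 2.0.5 and featureCounts 1.5.0-p3 with build hg38; whether counting used strand is stated in none of them. The deposited FPKM equalled the count over length and a library scale in 100% of 255784 values (tolerance 0.001), and FPKM were used only to compare levels between genes. Columns were matched to samples by target prefix and number, and 0 were unmapped.

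Counts were filtered with filterByExpr (99.9% of counts kept), scaled by TMM and fitted in edgeR 4.0.16 (R 4.3.3) with all 12 libraries, 1 term per group and no block. P-values were adjusted by Benjamini-Hochberg over 14920 genes, calls were made at 0.05, and the SE is the log2 fold change over the square root of F. The procedure was run on simulated counts in which few genes changed and variability was set alike for every gene. That setting does not cover changes as wide as those seen with CXCL14 siRNA. Alternatives were DESeq2 1.42.0 and limma 3.58.1 (voom), other scalings and filters, fits of only the groups compared, a replicate block, and leaving out each library.

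The members and lists were chosen with earlier results of these data known. Values per library are given for up to 8 called members per comparison with control by adjusted p, and up to 4 members are named in direct comparisons, some with fold changes only; up to 3 called genes per list are named, and ATF3, APOE, CXCL14 and CDKN1A always. Of the list genes that the rule selects, 1 is not reported here, and the list counts include it. GINS4, RRM2, TYMS, E2F8, PRIM2 and POLD3 among members not called, and MCM6 between APOE and CXCL14 siRNA, were named after their values were seen. The library values of RPA1 with CXCL14 siRNA were given outside these limits. So were the members lower with ATF3 siRNA in direct comparisons, and MCM2 and MCM4 between APOE and CXCL14 siRNA. For APOE against CXCL14 siRNA the same-numbered libraries deviated together in all 3 pairs (r = 0.225, 0.104 and 0.234 across genes), a pairing taken from the replicate numbers of the labels, and the block changed no member's call there.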

Additional observations from a re-analysis of the deposited data

How the results depend on the processing

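No called member changed direction in the alternatives that were run, and the calls made in all 14 of them numbered 49 of 51 for CXCL14 siRNA against control, 18 of 30 for APOE siRNA and 2 of 7 for ATF3 siRNA, 49 of 50 for ATF3 against CXCL14 siRNA, 45 of 46 for APOE against CXCL14 siRNA and 13 of 23 for ATF3 against APOE siRNA. Counts are given here as members higher or lower, and the cause of each shift was not tested. For ATF3 siRNA against control, 1 was higher without the low-count filter, 2 were lower when only the 2 groups were fitted, and the replicate block gave 4 higher and 9 lower. For APOE siRNA 5 were higher with library size alone. For CXCL14 siRNA 1 was higher without the filter, with the DESeq2 Wald test and with only the 2 groups fitted. For ATF3 against CXCL14 siRNA 1 was lower without the filter, and for APOE against CXCL14 siRNA 3 were lower with library size alone, a scaling that moved the median of all genes there to -0.11 on the log2 scale and the share of rises among calls from 52.0 to 39.6%, and for ATF3 against CXCL14 siRNA to -0.10 and from 52.9 to 41.5%. Leaving out each library gave 1 to 3 higher and 1 to 7 lower for ATF3 siRNA, 2 to 9 higher for APOE siRNA, 1 to 2 higher for CXCL14 siRNA, 11 to 17 higher for ATF3 against APOE siRNA and 1 to 2 lower for ATF3 against CXCL14 siRNA. Same-numbered libraries correlated at -0.0208 to 0.234 over 18 pairs, 11 of them over 0.1, and 14 correlated best with their own number, a hint from the data and not the design; the replicate block kept every call in the 6 comparisons and added POLD2, POLE, MCM5, RRM2, E2F1 and CCNE2 for ATF3 siRNA, RRM2, GINS4 and E2F8 for APOE siRNA, and CDT1 for ATF3 against APOE siRNA. With 3 libraries a group and E2F8 at 22 counts in a CXCL14 library, small changes in the scarcest members were not detectable at this depth.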
